A study of Rattus norvegicus with 12 samples.

Results

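The 10 genes described here are sensors of foreign or misplaced nucleic acid and the adaptors and kinases that act directly beneath them. They are Ddx58, Ifih1, Dhx58, Mavs, Tlr3, Tlr7, Mb21d1, Tmem173, Tbk1 and Ikbke. They were taken by name from a fixed list, and that list was chosen with earlier results of these data known. All 10 were found among the 18469 genes of the tables, where Mb21d1 is listed under its newer symbol Cgas. RNA was sequenced from neonatal rat ventricular myocytes (NRVMs), cardiac muscle cells cultured from newborn Sprague-Dawley rats. The cells were transfected with a small interfering RNA against Slc25a26, the mitochondrial carrier that imports S-adenosylmethionine, or with the negative control siRNA siNeg. Phenylephrine (PE), an alpha-1 adrenergic agonist that makes cultured myocytes grow, was added 12 h after transfection and left for 36 h. The 4 groups of 3 libraries were siNeg without PE, siNeg with PE, siSlc25a26 without PE and siSlc25a26 with PE, and the series describes the 3 as independent biological replicates. Every group, controls included, had been transfected with an siRNA, and no untransfected cells were compared. In this design, loss of the target and other effects of the siRNA labelled siSlc25a26 cannot be told apart.

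Cells detect viral or misplaced nucleic acid with a small number of receptors. In the cytosol, RIG-I (encoded by Ddx58) and MDA5 (Ifih1) bind double-stranded RNA and signal through MAVS on the outer mitochondrial membrane, and LGP2 (Dhx58) tunes them both. In endosomes TLR3 binds double-stranded RNA and TLR7 single-stranded RNA. Cytosolic DNA is bound by cGAS (Mb21d1), whose product cyclic GMP-AMP activates STING (Tmem173), and MAVS, STING and the adaptor of TLR3 all hand the signal to the kinases TBK1 (Tbk1) and IKK-epsilon (Ikbke), which phosphorylate the interferon regulatory factors. Several of the sensors are themselves interferon-stimulated genes, commonly through an interferon-stimulated response element (ISRE) in the promoter.

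Promoter windows of 6 of the 10 genes (Ifih1, Mavs, Tlr3, Tlr7, Tmem173 and Tbk1) were present in the RefSeq promoter table of the GRCr8 build. Those of 2 sensors and of the adaptor Mavs are shown as examples of genes called and not called between the siRNAs below. Capitals mark a match to the ISRE core (TTTC, any 2 bases, TTTC, searched on both strands). The windows were chr3:67683919-67684218 on the minus strand for Ifih1, chr16:53554666-53554965 on the plus strand for Tlr3 and chr3:138904562-138904861 on the plus strand for Mavs, each written 5′ to 3′ along its gene.
Ifih1: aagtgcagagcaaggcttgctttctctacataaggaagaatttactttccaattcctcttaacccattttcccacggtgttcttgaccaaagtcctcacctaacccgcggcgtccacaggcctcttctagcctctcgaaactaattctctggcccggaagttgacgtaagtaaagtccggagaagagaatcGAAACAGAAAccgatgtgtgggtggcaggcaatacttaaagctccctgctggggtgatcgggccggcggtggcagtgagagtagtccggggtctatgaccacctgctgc
Tlr3: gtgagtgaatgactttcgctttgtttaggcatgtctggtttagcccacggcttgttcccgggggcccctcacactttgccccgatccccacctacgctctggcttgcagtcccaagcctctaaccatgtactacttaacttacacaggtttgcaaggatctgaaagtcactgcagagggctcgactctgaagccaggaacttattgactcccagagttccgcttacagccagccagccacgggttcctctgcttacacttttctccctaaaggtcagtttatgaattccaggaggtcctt
Mavs: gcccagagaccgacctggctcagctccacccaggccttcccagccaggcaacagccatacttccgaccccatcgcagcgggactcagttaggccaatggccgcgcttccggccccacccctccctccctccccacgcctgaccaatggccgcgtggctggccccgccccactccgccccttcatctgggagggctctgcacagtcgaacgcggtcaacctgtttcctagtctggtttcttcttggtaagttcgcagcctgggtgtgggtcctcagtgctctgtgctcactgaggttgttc

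The match in Ifih1 lay on the strand opposite to the gene, from 59 to 50 bases before the annotated start. It was the only ISRE core match among the 6 windows, and 3.92% of all 33469 promoter windows of the same length held one. The letters of the gamma-activated site, TTCNNNGAA, were found in 0 of the 6 windows against 8.87% of all windows. These matches are descriptions of letters, and the windows of Ddx58, Dhx58, Mb21d1 and Ikbke were not examined here.

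The 12 libraries held 24770972 to 28709049 counts each, so that 3 counts corresponded to 0.0993 to 0.120 CPM (CPM being the read count divided by library size and TMM-corrected for composition). The targeted gene was examined first. Slc25a26 stood at 31.4 ± 2.0 CPM (SD, n = 3) in siNeg and 15.1 ± 0.612 CPM in siSlc25a26, a log2 fold change of -1.08 (adjusted p = 1.08e-05, edgeR quasi-likelihood test). With PE it stood at 102 ± 14.1 and 102 ± 3.69 CPM, and the knockdown was not visible in the RNA (log2 fold change -0.0062, adjusted p = 0.969). The group is therefore referred to below as the libraries labelled siSlc25a26 PE. Nppa, the atrial natriuretic peptide gene that rises in hypertrophic growth, averaged 120 CPM in siNeg, 3000 CPM in siNeg PE, 270 CPM in siSlc25a26, with 6139 CPM for the libraries labelled siSlc25a26 PE. The summed CPM of 10 cardiomyocyte markers was 29760 to 34189 without PE and 41029 to 50740 with PE. The summed CPM of 10 fibroblast markers was 25093 to 27864 in siNeg and 14657 to 16649 in siSlc25a26, and 13359 to 13945 and 10429 to 11540 in the corresponding PE groups. These sums mostly follow the most abundant markers: Col1a1 averaged 13322 CPM in siNeg and 8072 CPM in siSlc25a26. Tcf21 went the other way, from 35.2 to 47.3 CPM. At an adjusted p below 0.05 and over 1.5-fold, 7 of the 10 were lower and 0 higher in siSlc25a26 without PE. With PE 4 were lower and 1 higher. For PE in siNeg 6 were lower and 0 higher, and for PE in siSlc25a26 1 was lower and 0 higher. In the same order of comparisons, 7.2%, 8.1%, 8.24% and 10.4% of all genes tested were called lower. The shares called higher were 8.92%, 7.71%, 12.4% and 10.1%.

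The first question was how the sensing genes differed between siSlc25a26 and siNeg cells. Without PE, 8 of the 10 were called higher and 0 lower in siSlc25a26, where called means an adjusted p below 0.05 and a change of more than 1.5-fold. Of all 13829 genes tested, 8.92% were called higher and 7.2% lower. By fitted change the 3 cytosolic RNA receptors Dhx58, Ifih1 and Ddx58 rose most, by 16.4-fold or more, followed by Tlr7, Mb21d1 and Tlr3. The place of Tlr7 is not resolved, since its interval from counting error, 5.0 to 51.2, spans the changes of Ifih1 and Ddx58. The kinases Ikbke and Tbk1 rose less than 2-fold. The adaptors Mavs and Tmem173 were not called. The median log2 fold change of the 10 genes was 2.36, and that of all genes tested was 0.015. The values of siSlc25a26 and siNeg did not overlap for any of the 10 genes, as for 56.9% of all genes tested. In bulk RNA, more RNA per cell and more cells that carry it cannot be told apart.

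Under PE the same question gave 7 genes called higher and 0 lower, against 7.71% and 8.1% of 13671 genes tested. The median was 1.82 for the 10 genes and -0.0028 for all genes. For 8 of the 10 the groups did not overlap, as for 52% of all genes. Tbk1 was the member called without PE and not with PE. Tlr7 passed the filter on low counts in both comparisons only through the siSlc25a26 libraries, so its place among the called genes adds little to these counts. The comparisons with and without PE share no library.

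**Figure D1:**
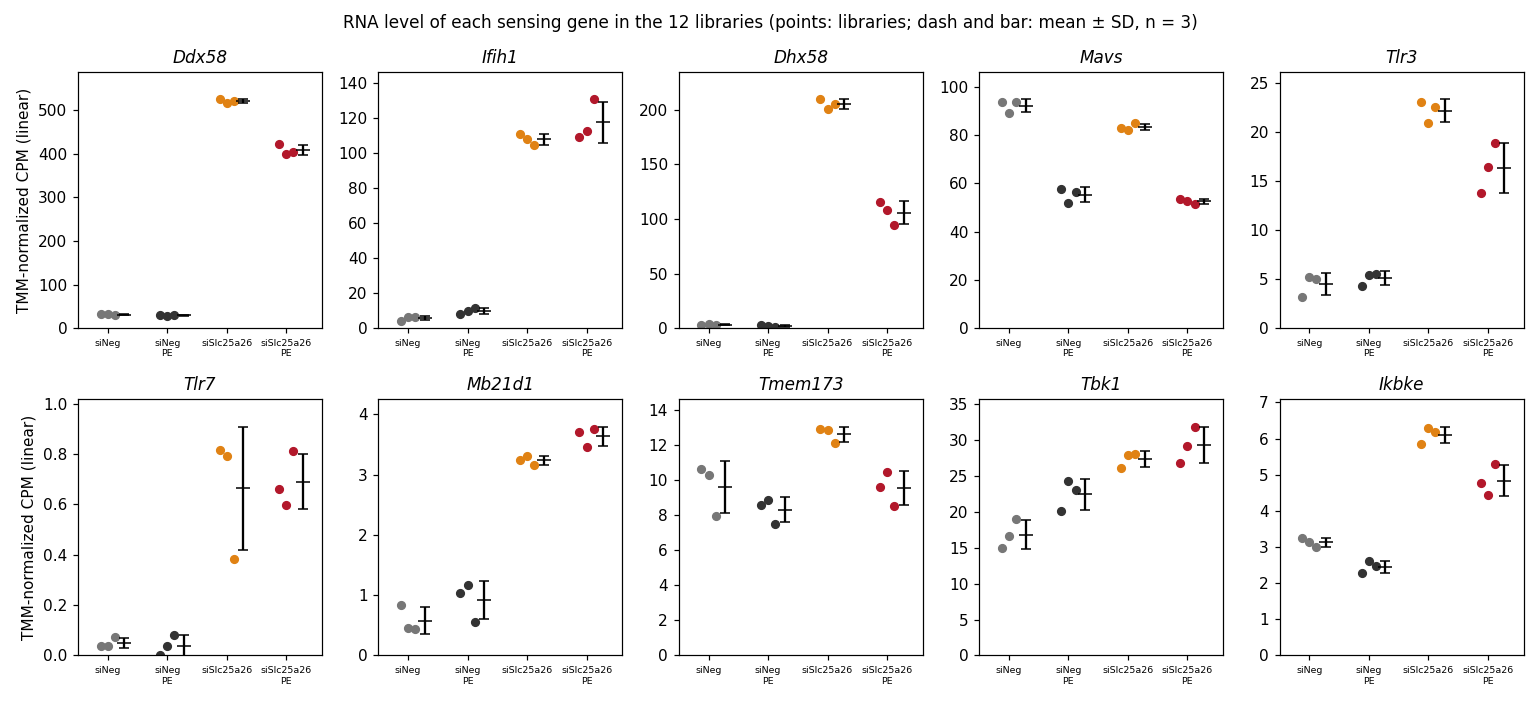
TMM-normalized CPM (linear axes starting at 0) of the 10 genes in each of the 12 libraries, with the mean and SD of each group of 3 beside the points. Ddx58, Ifih1 and Dhx58 sit near the bottom of their panels in all 6 siNeg libraries and far above in all 6 siSlc25a26 libraries, whereas Mavs separates by PE under both siRNAs and, by siRNA, narrowly without PE only.

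Ddx58 encodes RIG-I, the receptor for short double-stranded RNA with a triphosphate end. It stood at 31.6, 31.7 and 30.3 CPM in siNeg and at 524, 516 and 519 CPM in siSlc25a26. Under PE, siNeg held 30.8, 28.5 and 29.98 CPM, while 422, 399.8 and 402 CPM were found for the libraries labelled siSlc25a26 PE. The 6 siNeg libraries lay within a narrow band irrespective of PE, and every siSlc25a26 library was more than 10-fold above them. The increase was 16.4-fold without PE (log2 4.03, SE 0.052, adjusted p = 4.07e-10) and 13.6-fold with PE (log2 3.77, SE 0.067, adjusted p = 4.23e-09).

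Ifih1, the gene of MDA5, the receptor for long double-stranded RNA, was lower to begin with. Its siNeg libraries held 4.28, 6.29 and 6.46 CPM and its siSlc25a26 libraries 111, 108 and 105 CPM. Its PE values were 8.04, 9.84 and 11.3 CPM in siNeg, and those labelled siSlc25a26 PE gave 109, 113 and 131 CPM. PE thus went with a higher level in siNeg cells, without overlap, whereas the siSlc25a26 libraries with and without PE overlapped. The siRNA contrast gave 18.7-fold without PE (log2 4.22, SE 0.12, adjusted p = 1.34e-08) and 12.0-fold with PE (log2 3.59, SE 0.13, adjusted p = 8.05e-08). Ifih1 is the gene whose window above carried the ISRE core match.

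Dhx58 encodes LGP2, which resembles the other RIG-I-like receptors but lacks the signalling domain. It showed the largest change of the 10. It was counted 83, 90 and 89 times in siNeg, which is 3.01, 3.43 and 3.28 CPM, and stood at 209, 200.2 and 205 CPM in siSlc25a26. The PE libraries were at 2.71, 1.59 and 1.52 CPM for siNeg and at 115, 108 and 94.2 CPM for those labelled siSlc25a26 PE. All 4 groups were separated from each other, with PE lower than no PE under either siRNA. The increase with siSlc25a26 was 62.0-fold without PE (log2 5.95, SE 0.069, adjusted p = 3.18e-10) and 54.0-fold with PE (log2 5.76, SE 0.18, adjusted p = 3.6e-08).

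Mavs, the mitochondrial adaptor on which these receptors converge, behaved differently. It stood at 93.7, 89.1 and 93.6 CPM in siNeg and at 82.9, 82.2 and 84.9 CPM in siSlc25a26. Its PE values were 57.7, 52.0 and 56.4 CPM in siNeg, and those labelled siSlc25a26 PE gave 53.6, 52.6 and 51.3 CPM. The siRNA groups separated narrowly without PE and overlapped with PE. The log2 fold change with siSlc25a26 was -0.17 (SE 0.047, adjusted p = 0.0166) without PE, too small to be called, and -0.087 (SE 0.069, adjusted p = 0.349) with PE.

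Of the endosomal receptors, Tlr3 was detected in every library. It stood at 3.19, 5.19 and 5.06 CPM in siNeg and at 23.1, 20.9 and 22.6 CPM in siSlc25a26. Under PE, siNeg held 4.30, 5.44 and 5.55 CPM, while 13.8, 16.5 and 18.9 CPM were found for the libraries labelled siSlc25a26 PE. No siNeg library reached the lowest siSlc25a26 library. The increase was 4.87-fold without PE (log2 2.28, SE 0.16, adjusted p = 8.1e-06) and 3.19-fold with PE (log2 1.67, SE 0.15, adjusted p = 4.9e-05). The Tlr3 counts, like those of Slc25a26, were not all whole in the tables, and were rounded.

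Tlr7 was close to the limit of detection. It was counted 1, 1 and 2 times in siNeg and 24, 24 and 11 times in siSlc25a26. With PE it was counted 0, 1 and 2 times in siNeg and 17, 15 and 21 times in the libraries labelled siSlc25a26 PE. All siNeg libraries were below all siSlc25a26 libraries. The ratio of the pooled, depth-scaled counts was 13.5 (95% counting interval 5.0 to 51.2) without PE and 17.5 (5.67 to 87.5) with PE, and the edgeR test gave adjusted p = 0.00103 and 0.000908. Tlr7 is best known from plasmacytoid dendritic cells, B cells and macrophages. The summed CPM of 10 macrophage markers was 110 to 131 in siNeg, 57.1 to 66.3 in siSlc25a26, 59.7 to 67.5 in siNeg PE and 39.9 to 46.4 in the libraries labelled siSlc25a26 PE. Cd163 had 0 to 1 counts per library in siNeg and 0 in all libraries of the last 3 groups. Of the macrophage markers tested, 6 of 8 were called lower in siSlc25a26 without PE, against 7.2% of all genes. With PE 2 of 7 were called lower, against 8.1% of all genes, and 0 macrophage markers were called higher in either. The part of such cells in the Tlr7 values was not tested. The 5 lymphocyte markers in the tables summed to 1.84 to 5.44 CPM over all 12 libraries.

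The DNA sensor Mb21d1, whose product cGAS makes cyclic GMP-AMP, was also low. It stood at 0.834, 0.458 and 0.443 CPM in siNeg, from 23, 12 and 12 counts, and at 3.24, 3.31 and 3.16 CPM in siSlc25a26. The PE libraries were at 1.03, 1.17 and 0.559 CPM for siNeg and at 3.71, 3.46 and 3.75 CPM for those labelled siSlc25a26 PE. The 6 siSlc25a26 libraries were close to each other and above all 6 siNeg libraries. The increase was 5.45-fold without PE (log2 2.45, SE 0.25, adjusted p = 7.65e-05) and 3.91-fold with PE (log2 1.97, SE 0.25, adjusted p = 0.000373).

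Tmem173, the STING adaptor, stood at 10.7, 10.3 and 7.93 CPM in siNeg and at 12.9, 12.8 and 12.1 CPM in siSlc25a26. Its PE values were 8.60, 8.87 and 7.51 CPM in siNeg, and those labelled siSlc25a26 PE gave 9.60, 10.5 and 8.54 CPM. The siRNA groups were apart without PE, by less than 2 CPM at the nearest, and overlapped with PE. The log2 fold change was 0.36 (SE 0.12, adjusted p = 0.0377) without PE, below the 1.5-fold limit, and 0.19 (SE 0.12, adjusted p = 0.245) with PE. Both adaptors, Mavs and Tmem173, therefore lay outside the called set in either comparison.

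The kinases that receive the signal from these adaptors rose moderately. Tbk1 stood at 14.9, 16.6 and 18.9 CPM in siNeg and at 26.1, 27.96 and 27.98 CPM in siSlc25a26. Under PE, siNeg held 20.1, 24.2 and 23.0 CPM, while 26.8, 29.2 and 31.8 CPM were found for the libraries labelled siSlc25a26 PE. The siRNA groups did not overlap in either comparison. The change was 1.60-fold without PE (log2 0.68, SE 0.094, adjusted p = 0.000522), and with PE it had an adjusted p of 0.0134 but missed the fold limit (log2 0.38, SE 0.097, 1.30-fold).

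Ikbke, the inducible relative of Tbk1, stood at 3.26, 3.13 and 2.99 CPM in siNeg and at 5.86, 6.29 and 6.19 CPM in siSlc25a26. The PE libraries were at 2.27, 2.61 and 2.48 CPM for siNeg and at 4.76, 4.45 and 5.30 CPM for those labelled siSlc25a26 PE. All 4 groups were separated. The increase was 1.92-fold without PE (log2 0.94, SE 0.12, adjusted p = 0.000289) and 1.96-fold with PE (log2 0.97, SE 0.15, adjusted p = 0.000953). In the GRCr8 annotation the Ddx58, Tlr3, Mb21d1 and Ikbke genes overlap other gene models. Whether the counting used strand is not given in the sources used here, so reads from overlapping models cannot be told apart. Of those models only Ddx43, which overlaps Mb21d1, was in the tables, with 0 to 11 counts per library.

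**Figure D2:**
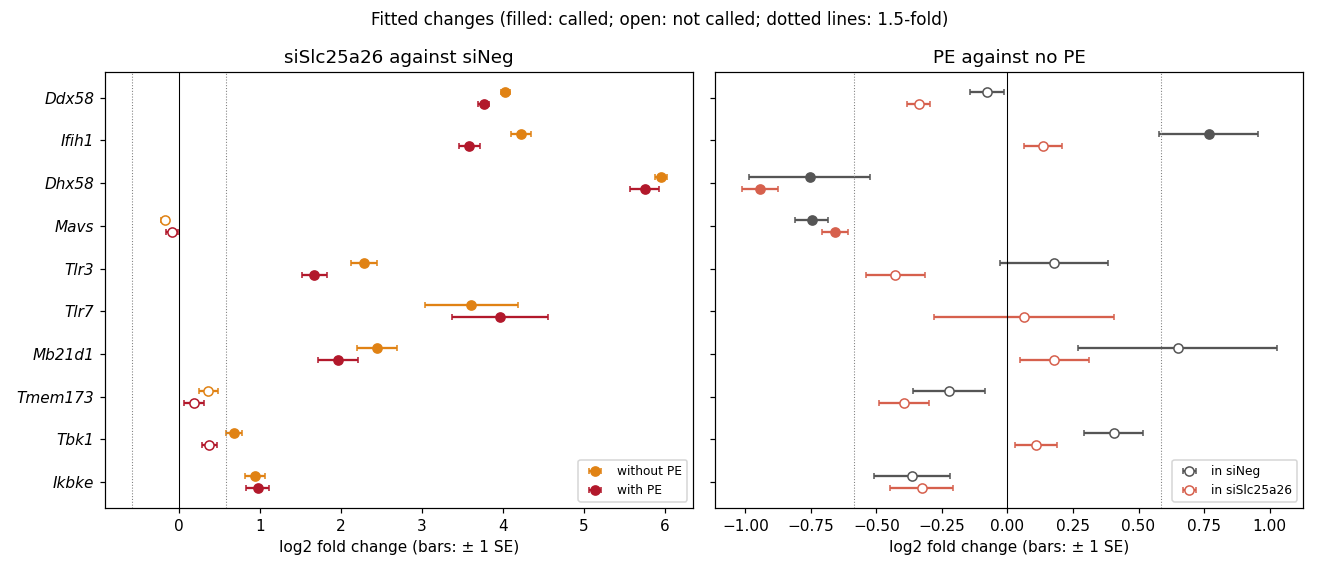
Fitted log2 fold changes with bars of 1 SE, for siSlc25a26 against siNeg (left) and PE against no PE (right). Filled points were called, open points were not, and dotted lines mark 1.5-fold. On the left Dhx58 reaches 5.95 and Mavs stays near 0; on the right no change exceeds 1 in size.

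The second question was how PE changed the sensing genes. In siNeg cells 1 gene was called higher and 2 lower of the 9 that could be tested, Tlr7 being too low, against 12.4% and 8.24% of 13719 genes. The groups did not overlap for 5 of the 9, as for 58.6% of all genes. Ifih1 rose 1.70-fold (log2 0.77, SE 0.19, adjusted p = 0.0107). Mavs fell, with a log2 fold change of -0.75 (SE 0.062, adjusted p = 6.44e-05), as did Dhx58 (log2 -0.75, SE 0.23, adjusted p = 0.0263). The Dhx58 call rested on few counts, 38 to 90 per library, and was lost without siNeg replicate 1 (adjusted p = 0.0529), siNeg replicate 2 (0.0819), siNeg PE replicate 2 (0.101) or siNeg PE replicate 3 (0.0776). Tbk1 was higher with PE, without overlap, at an adjusted p under 0.05, but changed by less than 1.5-fold (log2 0.41, SE 0.11, adjusted p = 0.0176). Ddx58 had a log2 fold change of -0.080 (2 SE to either side, -0.21 to 0.050, adjusted p = 0.335). The interval of Mb21d1 was wide (log2 0.65, 2 SE to either side, -0.11 to 1.41, adjusted p = 0.185).

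The libraries labelled siSlc25a26 PE, set against siSlc25a26 without PE, gave 0 genes called higher and 2 lower of 10, against 10.1% and 10.4% of 13776 genes. The groups did not overlap for 7 of the 10, as for 61% of all genes. Dhx58 was the member that fell most, with a log2 fold change of -0.94 (SE 0.070, adjusted p = 7.83e-06), and Mavs fell with -0.66 (SE 0.050, adjusted p = 9.37e-06). Ddx58 (log2 -0.34, SE 0.045, adjusted p = 0.000254), Tlr3 (-0.43, SE 0.11, 0.0118), Tmem173 (-0.39, SE 0.097, 0.00793) and Ikbke (-0.33, SE 0.12, 0.0461) had adjusted p values under 0.05 but changed by less than 1.5-fold. The median log2 fold change with PE was -0.080 in siNeg and -0.33 in the libraries labelled siSlc25a26, and that of all genes tested was 0.00016 and -0.0036. Each PE comparison shares its libraries with the siRNA comparisons, so the values are given side by side and not as separate evidence.

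Whether the effect of PE differed between the siRNAs, which is the same contrast as whether the siRNA effect differed between PE and no PE, was tested in a fit of all 12 libraries. Ifih1 was the only member called, with a difference of -0.65 on the log2 scale (SE 0.19, adjusted p = 0.0465), the rise with PE being smaller in the libraries labelled siSlc25a26 than in siNeg. Of 14097 genes 3.34% were called lower and 2.16% higher in this test. The Ifih1 call was marginal. It was lost without any 1 of the 3 siSlc25a26 libraries (adjusted p = 0.0744 to 0.0995), and without siNeg replicate 1 (0.102) or 2 (0.0578), siNeg PE replicate 2 (0.095) or 3 (0.133), or siSlc25a26 PE replicate 1 (0.0823) or 2 (0.103). Ddx58 had a difference of -0.28 (SE 0.066, adjusted p = 0.0178), below the fold limit, and the other 8 genes had adjusted p values of 0.112 to 0.967. For Tlr7 the interval of 2 SE to either side of the difference was -1.69 to 2.38, so a sizeable difference was not detectable at this depth.

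The levels of different genes were compared in FPKM, which accounts for transcript length. In siNeg the order was Mavs at 32.9 ± 0.839 FPKM, Ddx58 at 7.93 ± 0.387, Tbk1 at 5.92 ± 0.713 and Tmem173 at 5.03 ± 0.778, then Dhx58, Tlr3, Ifih1 and Ikbke between 1.01 and 1.36, Mb21d1 at 0.307 ± 0.107 and Tlr7 at 0.0133 (SD, n = 3 each). Tbk1 and Tmem173 overlapped, as did each neighbouring pair from Dhx58 to Ikbke. In siNeg cells the adaptor was thus above every sensor that signals through it. In siSlc25a26 the order was Ddx58 at 130 ± 1.45, Dhx58 at 89.2 ± 2.41, Mavs at 30.4 ± 0.246, Ifih1 at 23.3 ± 0.567, Tbk1 at 9.85 ± 0.359, Tmem173 at 6.74 ± 0.284, Tlr3 at 5.95 ± 0.47, Ikbke at 1.89 ± 0.108, Mb21d1 at 1.81 ± 0.0839 and Tlr7 at 0.173 ± 0.0666 FPKM. Here Tmem173 overlapped Tlr3 and Ikbke overlapped Mb21d1.

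With PE, Mavs led siNeg at 19.2 ± 1.14 FPKM, followed by Tbk1 at 7.62 ± 0.790 and Ddx58 at 7.08 ± 0.367, which overlapped. In the libraries labelled siSlc25a26 PE, Ddx58 led at 91.4 ± 1.22 FPKM, followed by Dhx58 at 40.7 ± 3.45, Ifih1 at 22.8 ± 2.62 and Mavs at 17.3 ± 0.189, with no overlap among these. All 3 cytosolic RNA receptors were therefore above their adaptor in that group.

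**Figure D3:**
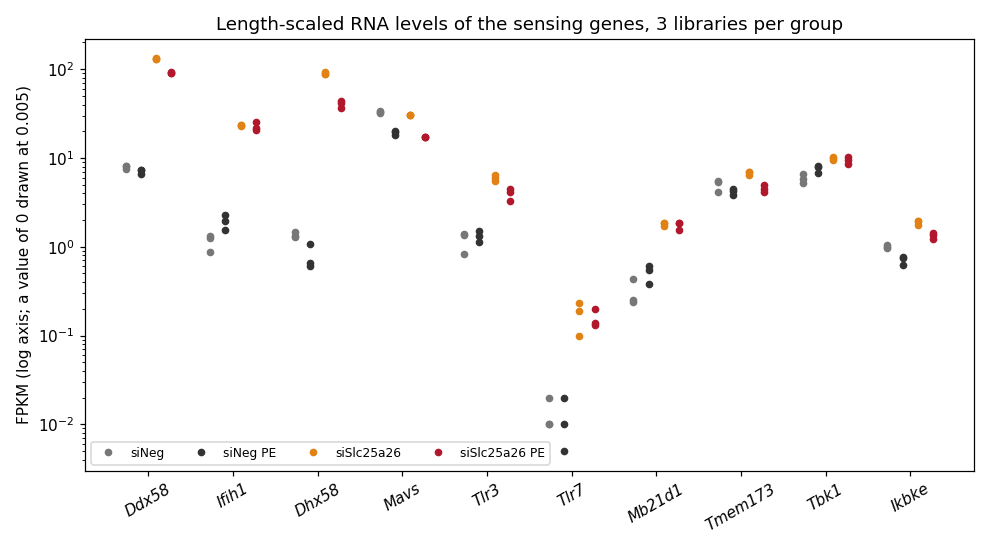
FPKM (log axis) of the 10 genes in the 12 libraries, 3 points per group, with a value of 0 drawn at 0.005. Mavs is the highest gene in both siNeg groups, at 32.9 and 19.2 FPKM on average, and Ddx58 is the highest in both siSlc25a26 groups, at 130 and 91.4 FPKM.

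The balance between partners, taken as the FPKM ratio within each library, changed accordingly. Ddx58 per Mavs was 0.241 ± 0.0156 in siNeg and 4.29 ± 0.0609 in siSlc25a26, and 0.368 ± 0.00287 and 5.29 ± 0.0655 in the respective PE groups (SD, n = 3). The regulator Dhx58 per Ddx58 went from 0.171 ± 0.0123 to 0.684 ± 0.0117 without PE and from 0.109 ± 0.0340 to 0.445 ± 0.0329 with PE. In contrast, Ifih1 per Ddx58 was 0.147 ± 0.0363 in siNeg and 0.179 ± 0.00311 in siSlc25a26, and 0.272 ± 0.0537 and 0.249 ± 0.0314 with PE. The last ratio overlapped between the siRNAs both with and without PE. On the DNA side, Mb21d1 per Tmem173 was 0.0607 ± 0.0164 in siNeg, 0.269 ± 0.0215 in siSlc25a26, 0.121 ± 0.0214 in siNeg PE and 0.390 ± 0.0741 in the libraries labelled siSlc25a26 PE. Ikbke per Tbk1 was 0.171 ± 0.0147, 0.192 ± 0.00406, 0.0928 ± 0.00037 and 0.142 ± 0.00357 in the same order of groups, and was lower with PE under both siRNAs. The smallest p that an exact permutation test allows with 3 against 3 libraries is 0.1, so these ratios are given without a test.

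For each member, the genes with the most similar pattern over the 12 libraries were sought among 14087 other genes. The measure was the root-mean-square difference of log2(CPM + 0.1) after each gene's own mean was subtracted. Tlr7 averaged 0.049 CPM in siNeg and 0.040 CPM in siNeg PE, below the added 0.1, so its distances depend on that setting. Parp14 was nearest to Ddx58 (0.14), Trim21 to Ifih1 (0.15) and RT1-T24-3 to Dhx58 (0.28), with Cmpk2 and Oasl at 0.29 for the last. Zc3hav1 was nearest to Tlr3 (0.19), C1s to Mb21d1 (0.27), Mnda to Tlr7 (0.32) and Apbb1ip to Ikbke (0.10). Mavs, Tmem173 and Tbk1 varied little over the libraries, and their nearest genes were Bcas3 (0.058), Upp1 (0.075) and Appbp2 (0.041). The distances of strongly varying and weakly varying members are not comparable, since a gene that barely varies is near to many others.

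Genes around the sensors were examined as 5 lists, whose counts stand against 8.92% of all genes called higher and 7.2% lower without PE, and 7.71% and 8.1% with PE. Of 15 partners and regulators of the RIG-I-like receptors, 5 were called higher and 0 lower in siSlc25a26 without PE, and 4 and 0 with PE. The median log2 fold changes of the list were 0.34 and 0.13. Ddx60, a helicase that acts with RIG-I, rose from 0.619 ± 0.10 to 135 ± 13.01 CPM (SD, n = 3; log2 7.73, SE 0.13, adjusted p = 5.77e-10). Nlrc5, a NOD-like protein that activates MHC class I genes, rose from 3.93 ± 0.844 to 65.2 ± 4.25 CPM (log2 4.03, SE 0.13, adjusted p = 3.65e-08). With PE their log2 fold changes were 6.63 and 3.41. The other called members without PE were Trim25, which ubiquitinates RIG-I, Zc3hav1, which binds viral RNA, and Cyld, a deubiquitinase that was called without PE only.

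Of 21 partners of DNA sensing, 19 were in the tables and 4 were called higher and 0 lower in siSlc25a26, with and without PE, with median log2 fold changes of -0.041 and 0.089. Of these 4, Zbp1 and Aim2 passed the filter on low counts only through the siSlc25a26 libraries. Zbp1, a sensor of Z-form nucleic acid, had 3 counts over the siNeg libraries and 1355 over the siSlc25a26 libraries, a ratio of 414 (95% counting interval 141 to 2008). Aim2, which forms an inflammasome on cytosolic DNA, had 1 and 329 counts, a ratio of 301 (53.7 to 11934). With PE the ratios were 123 (33.8 to 1023) and 68.8 (18.7 to 574). The remaining called genes were Trex1 and Samhd1, which degrade cytosolic DNA and deoxynucleotides, with log2 fold changes of 1.82 and 2.38 without PE and 1.27 and 1.33 with PE.

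Of the other Toll-like receptors and their chaperones, 11 of 15 in the tables could be tested without PE. Without PE 4 were called higher and 0 lower, and with PE 3 higher and 1 lower of 10. The lower gene was Tlr13, with 12 to 22 counts in siNeg PE and 7 to 8 in the libraries labelled siSlc25a26 PE. It passed the filter on low counts only through the siNeg PE libraries. Tlr2, a receptor for bacterial lipoproteins, rose from 4.94 ± 0.817 to 16.2 ± 0.600 CPM (log2 1.69, SE 0.12, adjusted p = 9.41e-06). Tlr4, the endotoxin receptor, rose from 2.13 ± 0.181 to 4.03 ± 0.446 CPM (log2 0.90, SE 0.15, adjusted p = 0.0017). Unc93b1, which carries the endosomal receptors Tlr3 and Tlr7 to their compartment, had log2 fold changes of 0.78 and 0.72 without and with PE and was called in both.

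Of 23 adaptors, kinases and transcription factors further downstream, 6 were called higher and 1 lower without PE, and 4 and 1 with PE. Irf7, the interferon-inducible interferon regulatory factor, rose from 34.8 ± 4.63 to 2467 ± 152 CPM (log2 6.12, SE 0.11, adjusted p = 8.73e-10), and from 14.7 ± 3.68 to 1619 ± 208 CPM with PE (log2 6.77). Irf3, its constitutive relative, was not called in either (log2 0.43 and 0.30, adjusted p = 0.00289 and 0.0165). Tradd, an adaptor in the MAVS complex, rose from 6.11 ± 0.593 to 13.7 ± 1.38 CPM (log2 1.13, SE 0.12, adjusted p = 8.73e-05). Ikbkg, the regulatory subunit of the IkappaB kinase, was the gene that fell, from 23.9 ± 0.988 to 15.3 ± 0.726 CPM (log2 -0.67, SE 0.077, adjusted p = 0.000165).

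**Figure D4:**
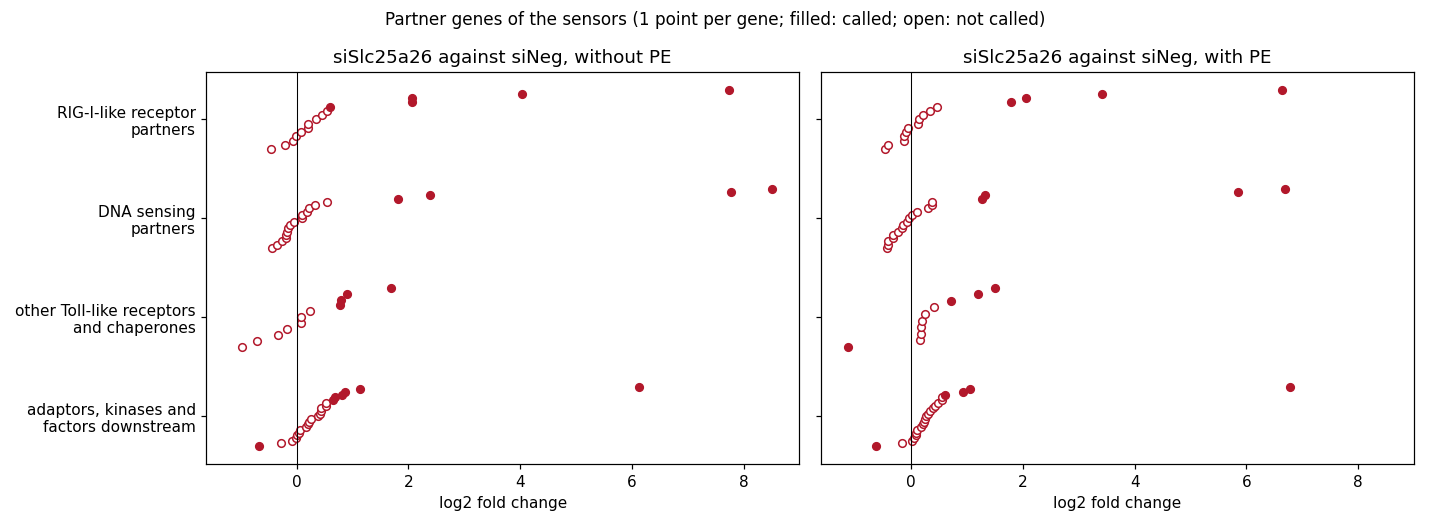
Fitted log2 fold changes of siSlc25a26 against siNeg, without PE (left) and with PE (right), for the genes of 4 lists, 1 point per gene, filled where called. Most genes of each list lie near 0, with Ddx60 at 7.73, Irf7 at 6.12 and the Zbp1 and Aim2 points, whose fitted positions depend on siNeg counts of 0 to 2 per library, far to the right.

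Of 12 interferon genes 10 were in the tables, and only Ifnb1, the interferon beta gene, was high enough to be tested without PE. It had 1 count over the siNeg libraries and 158 over the siSlc25a26 libraries, 50 to 55 in each, a ratio of 145 (95% counting interval 25.6 to 5750). With PE it had 0 counts in siNeg and 4 to 7 in each library labelled siSlc25a26 PE, at least 5.94-fold higher against a floor of 3 counts over the group. Ifna4 had 0 counts in siNeg and 43 over the siSlc25a26 libraries, at least 13.1-fold higher, and Ifna11 had 0 and 27, at least 8.24-fold higher, against the same floor. No count of Ifna4 or Ifna11 was found in siNeg PE, and the libraries labelled siSlc25a26 PE held 4 and 0.

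For PE in siNeg cells, 4 of 15 RIG-I-like receptor partners were called higher and 0 lower, 2 and 0 of 17 DNA sensing partners, 1 and 1 of 11 Toll-like receptors and chaperones, and 2 and 1 of 23 downstream genes, against 12.4% and 8.24% of all genes tested. The list medians were 0.16, 0.028, -0.22 and -0.092 on the log2 scale. The called genes included the helicases Ddx3x (log2 0.81), Dhx9 (0.60) and Dhx36 (0.84), all higher, and Irf7, which was lower (log2 -1.26, adjusted p = 0.000663). For the libraries labelled siSlc25a26 PE against siSlc25a26, 2 of 15 RIG-I-like receptor partners were called higher and 2 lower, 0 and 5 of 19 DNA sensing partners, 1 and 0 of 10 Toll-like receptors and chaperones, and 0 and 3 of 23 downstream genes, against 10.1% and 10.4% of all genes. The list medians were -0.28, -0.096, -0.24 and -0.097. Cyld (log2 0.59), the helicase Dhx15 (0.65) and the chaperone Hsp90b1 (0.61) were the genes called higher. Those called lower were Nlrc5 (log2 -0.79), Ddx60 (-0.93), Trex1 (-0.71), Samhd1 (-0.67), Rnaseh2a (-0.70), Aim2 (-1.03), Zbp1 (-2.23), Ticam2 (-0.84), Myd88 (-0.70) and Irf7 (-0.60). Ifnb1, with 158 counts without PE and 18 with PE, was also called lower. It passed the filter on low counts only through the siSlc25a26 libraries without PE, so its call adds little to its counts. The difference between the PE effects was called lower for Ddx60 (-1.12, adjusted p = 0.0339), Nlrc5 (-0.63, 0.0374) and Samhd1 (-1.07, 0.00115). That is 2 of 15 RIG-I-like receptor partners and 1 of 19 DNA sensing partners. It was called lower for 0 of 11 Toll-like receptors and chaperones, 0 of 23 downstream genes and 0 of 1 interferon genes. For no gene of the 5 lists was it called higher. Of all genes tested, 3.34% were called lower and 2.16% higher. The summed fibroblast and macrophage markers given above also differed between groups, and their part in the levels of the sensing genes was not tested.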

How the data were processed

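RNA sequencing of 12 libraries of total RNA was analysed. Per the labels, the libraries were made at BGI, and the submitters' processing notes name HISAT, Bowtie2 and the build Rnor_6.0. The counter, the annotation and strandedness are not given in the sources used here. The authors deposited expected counts (estimated counts; 20.8 to 21.9% of values per library were not whole) for each of 18469 genes. The authors also deposited FPKM, normalized for transcript length and library depth. Expected counts were rounded, filtered with filterByExpr, TMM-normalized and tested with the quasi-likelihood test of edgeR 4.0.16 (R 4.3.3), with Benjamini-Hochberg adjustment over all genes tested. Genes were called at adjusted p below 0.05 and over 1.5-fold. Each of 4 pairwise fits used its own 6 libraries, and the difference between PE effects used all 12. CPM used TMM factors of all 12 libraries. Counting intervals of pooled counts are exact at 95% and cover counting error only. On simulated counts at 2-fold, 99.5% of 200 changed genes were recovered among 13739 for siSlc25a26 against siNeg and 96% among 13922 for the difference. The changed genes were drawn from well-counted genes only, and all genes shared a common dispersion of 0.0091. These shares therefore do not give the power for low genes such as Tlr7 and Mb21d1, or for genes that vary more between replicates. No 2 libraries of a group were alike within sampling noise.

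Alternatives were DESeq2 1.42.0, limma-voom (limma 3.58.1), DESeq2 size factors, no filter, FPKM on a log2 scale in limma (pseudocount 1 or 0.1), at least 10 counts in every library, a replicate block, 1 fit of all libraries, no fold limit, and leaving out each library. The members and lists were chosen with earlier results of these data known. Named from each list were up to 2 genes with the largest increase and up to 2 with the largest decrease without PE, among called genes with at least 10 counts in each library of the higher group. Trim25, Zc3hav1, Cyld, Trex1, Samhd1, Unc93b1, Tlr13, Irf3, Ifna4, Ifna11, Col1a1, Tcf21 and the genes named for PE were chosen after their values were seen. Gene models that overlap were read from RefSeq by name, and 16962 gene identifiers matched it.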

Additional observations from a re-analysis of the deposited data

Results flagged for a closer look

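A difference between the PE effects under the 2 siRNAs had an adjusted p under 0.05 for 2 of the 10 genes in the edgeR fit of all 12 libraries, and 1 of them, Ifih1, also passed the fold limit and was called. Of all genes 3.34% were called lower and 2.16% higher. For Ifih1 the change with PE in siSlc25a26 less that in siNeg was -0.65 on the log2 scale (SE 0.19, adjusted p = 0.0465). The call was lost in 9 of the 12 fits that left out 1 library (adjusted p up to 0.133), with limma-voom (0.0522) and with DESeq2 size factors (0.0541). In siNeg its level was higher in 3 of 3 libraries with PE than in any without, and in the libraries labelled siSlc25a26 those with and without PE overlapped. For Ddx58 the same difference was -0.28 (SE 0.066, adjusted p = 0.0178), less than 1.5-fold. Its libraries labelled siSlc25a26 were lower with PE in 3 of 3, and its siNeg libraries overlapped. The targeted Slc25a26 transcript also differed in this test (1.06, adjusted p = 0.000466), and its part in either difference was not tested.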

How the results depend on the processing

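The calls of Ddx58, Ifih1, Dhx58, Tlr3 and Mb21d1 between the siRNAs kept their direction and their side of both limits under every alternative run, with and without PE; over them the log2 change without PE ranged from 3.88 to 4.06 for Ddx58, 3.50 to 4.30 for Ifih1, 5.26 to 5.99 for Dhx58, 1.68 to 2.40 for Tlr3 and 1.11 to 2.81 for Mb21d1. With log2(FPKM + 1), which shrinks low genes by construction, Tlr7 (0.21 and 0.20 without and with PE) and Ikbke (0.53 and 0.45) fell under the fold limit, and for PE in siNeg the counts became 0 higher and 1 lower. Without a fold limit the counts became 1 lower for siSlc25a26 without PE, 2 higher for PE in siNeg, 6 lower for PE in siSlc25a26 and 2 lower for the difference between PE effects. That last count was 0 with limma-voom (Ifih1 adjusted p = 0.0522) and with DESeq2 size factors (0.0541), 2 with log2(FPKM + 1), which called Dhx58 (-0.70) and Tlr3 (-0.59) and not Ifih1 (-0.48, adjusted p = 0.0612), and 0 to 1 with 1 library left out; members called lower for PE in siNeg were 1 to 2 with 1 library left out. With log2(FPKM + 0.1) Tlr3 was called lower for PE in siSlc25a26 (-0.59).

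Reversals of sign all concerned values that were not called. For PE in siSlc25a26 they were Ifih1 (-0.040 and -0.042), Tlr7 (-0.020 and -0.070), Mb21d1 (-0.031 and -0.047) and Tbk1 (-0.062 and -0.068) with log2(FPKM + 1) and log2(FPKM + 0.1), where the median of all genes was itself -0.13 and -0.17, and Tlr7 with siSlc25a26 PE replicate 3 (-0.074) or siSlc25a26 replicate 3 (-0.21) left out, its range over left-out libraries being -0.21 to 0.23. For the difference they were Mavs (-0.033 and -0.036), Tlr7 (-0.015 and -0.024) and Ikbke (-0.074 and -0.013) in the FPKM fits, where the median of all genes was -0.11 and -0.14, and over left-out libraries, Tlr7 (range -0.19 to 1.22), Ikbke (-0.057 to 0.069) and Dhx58 (-0.35 to 0.10). For PE in siNeg it was Tlr3 without siNeg replicate 1 (range over left-out libraries -0.0072 to 0.30). The cause was not tested beyond the shift of the median.

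Replicate numbers paired the libraries weakly between the siRNAs with PE and for PE in siNeg, and not visibly in the other comparisons. Between the siRNAs, correlations of same-numbered deviations were -0.0837 to 0.0535 without PE and 0.0216 to 0.222 with PE. They were 0.0106 to 0.235 for PE in siNeg and -0.0775 to -0.00865 for PE in siSlc25a26. In the same order of comparisons, 2, 4, 5 and 0 of 6 libraries correlated best with their own number. With the replicate block the difference between PE effects had 2 genes called lower, Tlr3 being added (-0.65, adjusted p = 0.0435), and the block changed no other call of the 10 genes. With 0 to 4 counts of Tlr7, Zbp1, Aim2 and Ifnb1 over each siNeg group, depth limits the size of their ratios.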
